A study of Rattus norvegicus with 10 samples.

Results

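The cytosolic ribosomal protein genes encode the proteins of the small (40S) and large (60S) ribosomal subunits. They were taken as every probe set whose 1 gene symbol had the form of a ribosomal protein symbol (Rps, Rpl or Rplp with a number and at most an a, l or x and 1 further digit, and Rpsa or Fau). The letter y is not in this form, so the paralogue Rps4y2 is no member; its values are given beside theirs, because it differed more than any tested member. This gave 49 of the 15923 probe sets, for 43 of the 10412 genes named by such a symbol, 13 of them named for the small and 30 for the large subunit. Another 35 probe sets listed a ribosomal protein gene together with other symbols and were left out, since no single gene can be named from them; Fau, Rplp1 and Rps19 were measured only in this way. The 49 probe sets were measured in kidneys of rat fetuses on day 22 of gestation, with 5 arrays per group. The normal group (replicates 1 to 5) came from normal mothers on a regular diet. The hyperinsulinemic group (replicates 6 to 10) came from pregnant Wistar rats (200 to 280 g) given insulin from slow-release implants, 2 mm in size and set beneath the skin before mating and once more after it; its fetuses were growth restricted. The treated mothers also ate a normal diet. The strain of the normal mothers, the litter and the sex of the fetuses are not given in the labels, so the p-values measure only the spread between these samples, part of which may be technical.

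A ribosome carries 1 copy of nearly every ribosomal protein, and cells adjust the supply of these proteins largely at translation. Most of the mRNAs begin with a C followed by an unbroken tract of C and T, the 5' terminal oligopyrimidine (TOP) tract, through which signalling by insulin, growth factors and amino acids by way of mTOR sets how much of the mRNA is on polysomes. An array measures the amount of mRNA and not its translation. In the growing fetal kidney, ribosomal protein mRNAs are among the abundant transcripts.

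The sequence at the start site is shown for 8 members, 6 whose RefSeq start base lies in a C/T run and 2 paralogues in which it does not. Each line holds 15 bases before and 15 bases from the annotated start base onward, with the C/T run around the start base in capitals (RefSeq, GRCr8 build).
Rps23, chr2:23814502-23814531, plus strand: tgggtccttcctgCCTCTCTTCTCTCTTTC
Rpl27a, chr1:172974558-172974587, plus strand: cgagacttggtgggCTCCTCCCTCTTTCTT
Rpl34, chr2:221962269-221962298, minus strand: CCCCTTCCTTTTCCTCTTCCggggacggtg
Rpl35, chr3:43165907-43165936, minus strand: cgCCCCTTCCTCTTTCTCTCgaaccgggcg
Rps15, chr7:10068101-10068130, minus strand: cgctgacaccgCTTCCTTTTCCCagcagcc
Rps3a, chr2:173827028-173827057, minus strand: gagttgtacttccgCCCTTTTggctctcag
Rpl7l1, chr9:21695703-21695732, plus strand: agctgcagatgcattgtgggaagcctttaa
Rpl3l, chr10:14258431-14258460, plus strand: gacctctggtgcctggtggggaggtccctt
The capitals end with the window in Rps23 and Rpl27a, where the run goes on. The whole run was 21 bases long in Rps23, 20 in Rpl27a and Rpl34, 18 in Rpl35, 12 in Rps15 and 7 in Rps3a. Runs were counted in both directions from the start base, so part of each of these lies before the annotated start. The lengths are therefore not lengths of a TOP tract in the mRNA. The start base is a T in Rps23 and Rpl27a and a C in Rpl34, Rpl35, Rps15 and Rps3a. Of the 43 genes, 36 had a promoter entry, and in 16 of these (44.4%) the start base lay in a C/T run of at least 5 bases, against 10.8% of 21842 promoters of protein-coding genes. The start base was a C in 13 of the 36 (36.1%), against 24.4% of the coding promoters. A run of at least 8 bases within 25 bases of the start was present in 25 of the 36 (69.4%), against 18.9% of the coding promoters. None of these shares counts TOP tracts as such. In several members, such as Rpl21 and Rps16, such a run lies beside the annotated start and not on it. Rps6, in which the start base is a G, has a run of 8 bases within that distance.

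Short motifs were searched on both strands over the whole RefSeq window of 250 bases before to 50 bases after the start. The core of the ETS-family site, CGGAAG, was in 17 of the 36 windows (47.2%; 19.8% of coding promoters). The YY1 core, AAGATGG, was in 8 (22.2%; 7.29%), the GC box of Sp factors, GGGCGG, in 22 (61.1%; 41.8%), and TATAAA in 5 (13.9%; 13.0%). The YY1 letters can overlap a start codon that lies in the window. These matches describe letters and were not tested as binding sites.

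No ribosomal protein gene passed the comparison between the groups. Of the 49 probe sets, 46 (41 genes) reached the level set for testing, and all 46 did so on all 10 arrays; the other 3 reached it on 0 arrays. Values are signals of the MAS5 algorithm, compared as log2(signal + 16), and differences are given as hyperinsulinemic minus normal with their standard error. In limma, 0 of the 46 had an adjusted p below 0.05 (Benjamini-Hochberg over 9601 probe sets), where 0.0104% of all tested probe sets did. The smallest adjusted p of a member was 0.918. An unadjusted p below 0.05 was reached by 2 members, both higher, and by 0 that were lower, against 2.44% of all tested probe sets that were higher and 2.93% that were lower (5.36% in either direction). An exact rank test passed 0 members, with 1 at an unadjusted p below 0.05, as had 362 of all 9601 tested probe sets. Its smallest possible p with 5 and 5 arrays is 0.00794. Only 0.531% of all tested probe sets reached that floor as higher and 0.51% as lower, with groups that do not overlap. With so few, no adjusted p could fall below 0.05, so this 0 says nothing about the members. The members' differences ran from -0.13 to 0.13, and 26 of the 46 were smaller than their own standard error, whose median was 0.07.

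Rps4y2, a paralogue of the small-subunit gene Rps4x that the symbol form leaves out, lay outside that range. Its signals were 231.7, 284.8, 200.7, 261.7 and 242.9 on normal arrays and 215.3, 159.9, 138.4, 168.5 and 202.2 on hyperinsulinemic arrays. Hyperinsulinemic replicates 6 and 10 lay above normal replicate 3 and below the other normal arrays, so the groups overlapped. The means were 244 ± 31.6 and 177 ± 31.5 (SD, n = 5 each; log2 difference -0.44 ± 0.11, limma unadjusted p = 0.0017, adjusted p = 0.620). Counted with the members, it would make 3 of 47 at an unadjusted p below 0.05, 1 of them lower, with 36 above 0 and 11 below and 0 that pass. It is on chromosome 4 in the GRCr8 gene table.

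By direction, 36 of the 46 differences were above 0 and 10 below (78.3% above), against 50.9% of all tested probe sets. The median was 0.053 for the members and 0.0020 for all. Bright probe sets leaned the same way. Of 215 others with a mean signal of 2000 or more, 72.1% were above 0, against 78.95% of the 38 members that bright. The lean of the members varied with the arrays left out and with the scaling. Without hyperinsulinemic replicate 10 the split was 25 above and 21 below, with a median of 0.0039. After quantile normalization it was 24 above and 22 below, with a median of 0.0030. With arrays shifted to a common median, 36 stayed above 0, with a median of 0.055. Without both hyperinsulinemic replicates 7 and 10, a choice made after seeing the data, 37 were above 0, with a median of 0.042. Without hyperinsulinemic replicate 7, 43 were above 0 (49.7% of all tested probe sets), and 10 members, all higher, had an unadjusted p below 0.05, against 2.67% of all tested probe sets that were higher in that fit. The small subunit had 14 of 16 above 0 (median 0.043) and the large subunit 22 of 30 (median 0.053). Probe sets that list a ribosomal protein gene with other symbols, which are not members, had 30 of 35 above 0 and 0 that passed in limma, with 0 at an unadjusted p below 0.05.

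**Figure D1:**
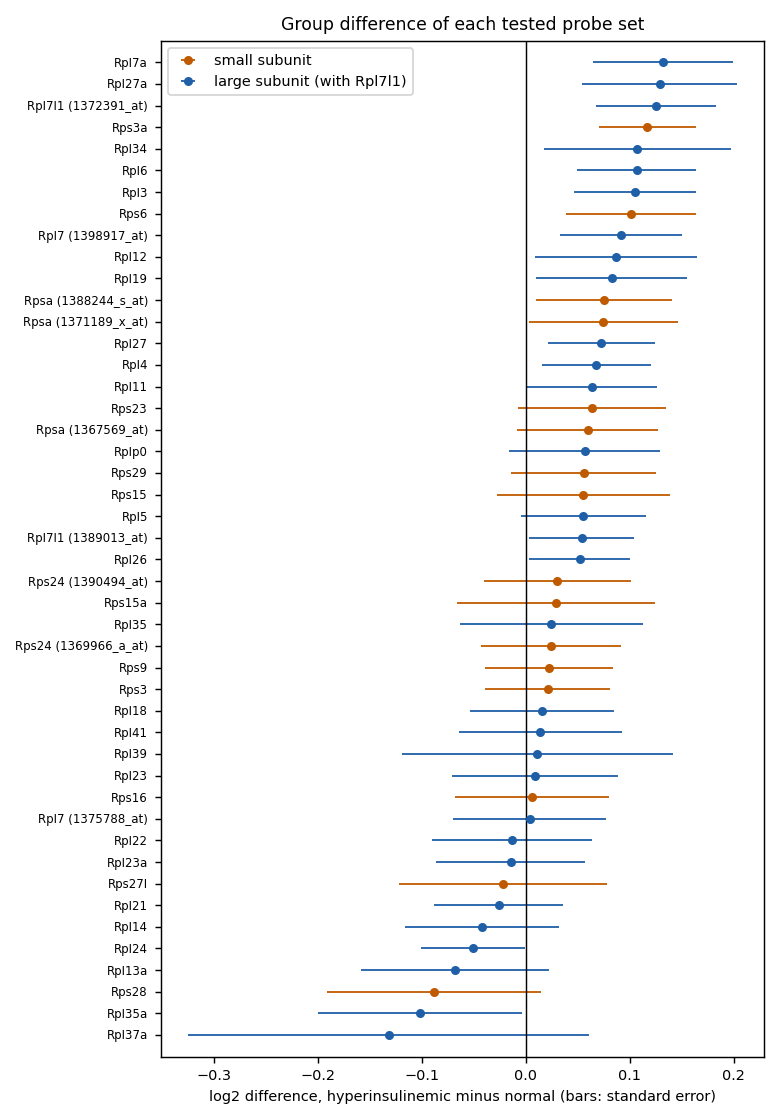
Log2 difference between the groups (hyperinsulinemic minus normal, 5 arrays each) for each of the 46 tested ribosomal protein probe sets, with bars of 1 standard error; orange marks small-subunit and blue large-subunit genes. The differences run from -0.13 for Rpl37a to 0.13 for Rpl7a, and none passed in limma after adjustment over 9601 probe sets.

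Among small-subunit genes, Rps3a, whose protein sits at the side where mRNA leaves the subunit, separated the groups. Its signals were 4063, 4067, 4047, 3852 and 3990 in normal replicates 1 to 5 and 4481, 4317, 4070, 4268 and 4594 in hyperinsulinemic replicates 6 to 10. The 2 groups did not overlap, the closest pair being replicate 8 at 4070.3 against normal replicate 2 at 4066.9. The means were 4004 ± 90.1 and 4346 ± 202 (SD, n = 5 each), a log2 difference of 0.12 ± 0.05 (limma, unadjusted p = 0.0256, adjusted p = 0.918). It was 1 of 46 members without overlap in this direction, against 0.531% of all tested probe sets, and 0 members were without overlap on the lower side, against 0.51%. After quantile normalization its difference was 0.056.

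Rps6, the substrate of the S6 kinases downstream of insulin and mTOR, had normal signals of 4269, 4540, 4450, 5012 and 4864 and hyperinsulinemic signals of 5177, 4439, 4914, 4857 and 5447. Replicates 6 and 10 were above all normal arrays and replicate 7 was below 4 of them, so the groups overlapped. The means were 4627 ± 305 and 4967 ± 377 (SD, n = 5 each; log2 difference 0.10 ± 0.06, limma adjusted p = 0.957), and after quantile normalization the difference was -0.0019.

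Rps28, another protein of the mRNA exit side and one of the genes mutated in Diamond-Blackfan anaemia, had the lowest difference of the small subunit. It stood at 3092, 3238, 3175, 3415 and 3053 on normal arrays and at 3342, 2154, 3065, 3157 and 3497 on hyperinsulinemic arrays. Replicate 7 alone was low, while replicate 10 was the highest of all arrays. The log2 difference was -0.09 ± 0.10 (limma, adjusted p = 0.973) with all arrays and 0.03 without replicate 7. Rps27l, a paralogue of Rps27 that p53 induces, was the other small-subunit member below 0, at 140 ± 12.4 and 139 ± 21.1 (log2 difference -0.02 ± 0.10); its sign turned under several alternatives.

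The remaining small-subunit differences lay between 0.0059 for Rps16 and 0.07 for 2 probe sets of Rpsa. Rps23, which lines the decoding centre, stood at 4861 ± 271 and 5098 ± 539, and Rps3, a protein of the mRNA entry that also takes part in DNA repair, at 3215 ± 185 and 3265 ± 238. Rps15 was the most even member of the normal group, between 2824 and 2912, but ran from 2412 on replicate 7 to 3671 on replicate 10 on hyperinsulinemic arrays. Rps15a went the other way, from 2221 to 3432 over normal and from 2769 to 3169 over hyperinsulinemic arrays, with normal replicate 1 lowest. Rps9, Rps24 and Rps29 differed by 0.02, 0.02 and 0.06.

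In the large subunit the leading difference by p belonged to Rpl7l1, a paralogue of Rpl7 that works in the nucleolus in the assembly of the subunit. The dimmer of its 2 probe sets stood at 503.6, 533.2, 495.5, 558.4 and 473.7 on normal arrays and at 556.5, 568.7, 527.9, 574.2 and 573.8 on hyperinsulinemic arrays. Normal replicate 4 lay above hyperinsulinemic replicates 6 and 8, and normal replicate 2 above replicate 8; the other normal arrays lay below all 5. The means were 513 ± 33.2 and 560 ± 19.4 (SD, n = 5 each; log2 difference 0.13 ± 0.06, limma unadjusted p = 0.0472, adjusted p = 0.919), and the difference was 0.13 after quantile normalization too. The brighter Rpl7l1 probe set gave 0.05 ± 0.05, at 817 ± 28.4 and 848 ± 36.8.

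Rpl7a had the highest difference of all members, 0.13 ± 0.07 (limma, adjusted p = 0.934). Normal arrays read 4227, 4250, 4395, 4920 and 4708, and hyperinsulinemic arrays 5148, 4667, 4614, 4598 and 5677. Replicates 6 and 10 stood above all normal arrays and the other 3 fell within the normal range. Its difference was 0.08 without replicate 10, less than the 0.12 of Rpl7l1 there, and 0.03 after quantile normalization. Rpl27a followed at 0.13 ± 0.07, with means of 4443 ± 251 and 4879 ± 569, and Rpl34 at 0.11 ± 0.09. Rpl6, at 4114 ± 291 and 4426 ± 212, differed by 0.11 ± 0.06. Rpl3, which reaches towards the peptidyl transferase centre, differed by 0.10 ± 0.06 (4835 ± 285 and 5203 ± 359). The brighter probe set of Rpl7 differed by 0.09 ± 0.06. Without replicate 10 the differences of Rpl27a, Rpl34, Rpl6, Rpl3 and Rpl7 were 0.08, 0.06, 0.10, 0.07 and 0.05, and after quantile normalization 0.03, 0.06, 0.05, 0.01 and 0.05. In limma the adjusted p was 0.941 for Rpl27a, Rpl6 and Rpl3, 0.969 for Rpl7 and 0.973 for Rpl34.

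Rpl5 and Rpl11, which with 5S RNA form the particle that binds Mdm2 and stabilises p53 when ribosome assembly fails, were close together in difference. Rpl5 stood at 3558 ± 176 and 3704 ± 309 (log2 difference 0.06 ± 0.06) and Rpl11 at 3456 ± 191 and 3618 ± 299 (0.06 ± 0.06). Rplp0, the anchor of the stalk that recruits elongation factors, had normal signals of 3139, 3165, 3195, 3518 and 3298 and hyperinsulinemic signals of 3537, 3310, 3100, 3044 and 4058. The lowest and the highest values were both in the hyperinsulinemic group, on replicates 9 and 10, and the log2 difference was 0.06 ± 0.07. Rpl4, which lines the exit tunnel for the growing peptide, differed by 0.07 ± 0.05. Rpl19, Rpl23a, Rpl26 and Rpl35, which lie around that exit, differed by 0.08, -0.01, 0.05 and 0.02.

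In the large subunit 8 members were below 0. Rpl35a, a Diamond-Blackfan anaemia gene, stood at 2659, 2431, 2682, 2588 and 2426 on normal arrays and at 2545, 1769, 2478, 2372 and 2879 on hyperinsulinemic arrays. Only replicates 7 and 9 were below the normal range, and replicate 10 was above it. The log2 difference was -0.10 ± 0.10 (limma, adjusted p = 0.973), and 0.0040 without replicate 7. Rpl37a, a zinc-finger protein of the large subunit, had the widest spread of the tested members: 3744, 3624, 4002, 3634 and 2499 in the normal group against 2452, 2057, 3494, 3521 and 5012 on hyperinsulinemic arrays. Its log2 difference was -0.13 ± 0.19 (limma, adjusted p = 0.974) and 0.02 without replicate 7.

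Rpl13a, which also silences translation of inflammatory mRNAs outside the ribosome, stood at 3395, 3313, 3501, 3453 and 2983 on normal arrays and at 2396, 3349, 3322, 3431 and 3496 on hyperinsulinemic arrays. Replicate 6 alone was low, and on that array most other members were above their own mean. The log2 difference was -0.07 ± 0.09 (limma, adjusted p = 0.973) and turned to 0.03 without replicate 6. Rpl24 differed by -0.05 ± 0.05, Rpl14 by -0.04 ± 0.07, Rpl21 by -0.03 ± 0.06, Rpl23a by -0.01 ± 0.07 and Rpl22 by -0.01 ± 0.08.

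Rpl39, a tunnel protein, was the 1 member on the X chromosome of the GRCr8 gene table. Its normal signals were 434, 272, 263, 369 and 261, and its hyperinsulinemic signals 380, 321, 305, 302 and 278. The normal group held both the highest and the lowest array. The means were 320 ± 78.3 and 317 ± 38.3 (SD, n = 5 each; log2 difference 0.01 ± 0.13, limma adjusted p = 0.998). Xist, the transcript of X inactivation and a marker of female cells, read 0.8 to 2 on normal and 42.4 to 70.5 on hyperinsulinemic arrays (exact two-sided permutation p = 0.00794, the smallest possible; adjusted p = 0.0318 over 4 array measures). All of these lie below the level set for testing. The X-linked genes Eif2s3 (log2 difference 0.70 ± 0.13, limma unadjusted p = 8.3e-05, adjusted p = 0.133) and Ddx3x (0.23 ± 0.07, unadjusted p = 0.0050, adjusted p = 0.737) were higher on hyperinsulinemic arrays by difference, as was Kdm5c, the 3 of the sex-linked list that were tested. The labels give no fetal sex, and a difference in sex between the groups cannot be told apart from the treatment in any comparison here.

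**Figure D2:**
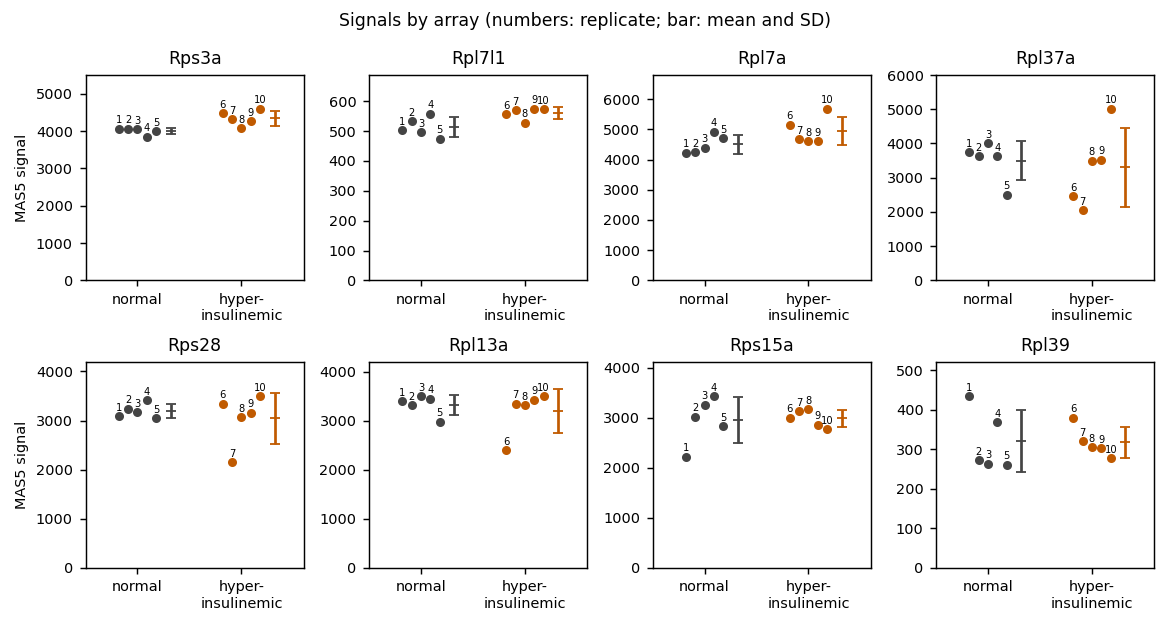
MAS5 signal (vertical axis, from 0) of 8 ribosomal protein genes on each array, with the replicate number above each point and the group mean and SD beside the points; the Rpl7l1 panel shows its dimmer probe set. The groups do not overlap for Rps3a, replicate 7 is lowest for Rps28 and Rpl37a, and replicate 6 is lowest for Rpl13a.

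Probe sets of 1 gene did not always move together on single arrays. For Rpsa, the laminin receptor precursor, the 3 probe sets, from bright to dim, gave differences of 0.06, 0.07 and 0.07. On replicate 10 they stood at 0.29, 0.27 and -0.07 from their normal means and on replicate 7 at -0.02, -0.03 and 0.16, so the dimmest ran the other way. Without replicate 10 the differences were 0.0027, 0.03 and 0.11. For Rpl7, the dimmer probe set gave 0.0035 ± 0.07 at 204 ± 13.5 and 205 ± 16.4. The 2 probe sets of Rps24 both gave a difference above 0, of 0.02 and 0.03, but on replicate 10 the first stood 0.12 above its normal mean on the log2 scale and the second 0.09 below it (value -0.09). The dimmer probe set of Rpl14 stood at 27.7 ± 13.0 and 37.4 ± 9.33, the only one of Rpl30 at 26.9 ± 2.69 and 28.0 ± 4.58, and that of Rpl3l, the striated-muscle paralogue of Rpl3, at 4.18 ± 1.68 and 5.24 ± 1.75 (SD, n = 5 each). These 3 lay below the test level, which ran from 79.2 to 87.6 over the arrays, and no fold change is given for them. Signals of different probe sets depend on their probes and were not set against each other as levels of genes.

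What the members shared was their position on single arrays. When each tested probe set was taken relative to its own mean over the 10 arrays (log2 scale), the median over the 46 was -0.07, -0.05, -0.02, 0.06 and -0.01 on normal replicates 1 to 5 and 0.09, -0.12, -0.03, 0.03 and 0.18 on hyperinsulinemic replicates 6 to 10. The highest and the lowest array were thus both on hyperinsulinemic arrays. Replicate 10 was the highest array for 33 of the 46 (71.7%; 13.3% of all tested probe sets), and replicate 7 was the lowest for 24 (52.2%; 10.7% of all). Above their own mean on replicate 10 and below it on replicate 7 were 37 members (80.4%; 26.3% of all). Replicates 10 and 7 were singled out by the members' own medians. The members' shares on these arrays are thus partly set by that choice, while those of all tested probe sets are not. Relative to the normal mean, the median member stood 0.20 higher on replicate 10, a fold of 1.15, and on replicate 7 at -0.08, a fold of 0.946.

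The spread within the hyperinsulinemic group was accordingly wider. The median SD of a member on the log2 scale was 0.075 for normal and 0.15 for hyperinsulinemic arrays, and 40 of the 46 (87.0%) had the larger SD there. Over all tested probe sets the medians were 0.11 and 0.13, and 62.7% had the larger SD on hyperinsulinemic arrays. On replicate 10, 37 members exceeded every normal array, and on replicate 7, 24 fell below every normal array. The shares of all tested probe sets that did so were not computed, so these counts have no background beside them. As examples, on replicates 10 and 7 Rps15, Rpl35 and Rpl23 stood at 0.35 and -0.25, 0.29 and -0.31, and 0.30 and -0.27 from their normal means.

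**Figure D3:**
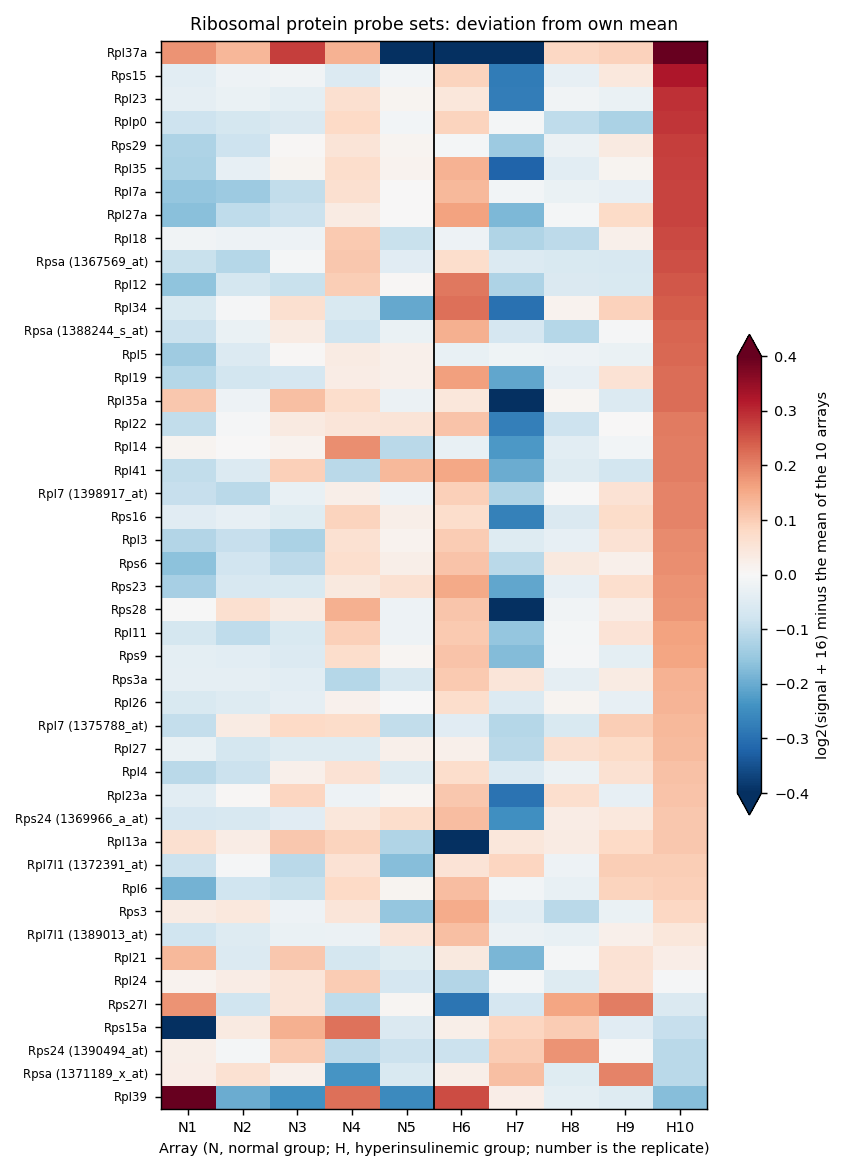
Log2(signal + 16) of the 46 tested ribosomal protein probe sets on each array, minus the probe set's own mean over the 10 arrays, sorted by the value on hyperinsulinemic replicate 10; the colour scale ends at -0.4 and 0.4. Replicate 10 (H10) is red for most members and replicate 7 (H7) blue, while Rpl39 and Rps15a near the bottom are below their mean on H10 and above it on H7.

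Other bright probe sets were also high on replicate 10, but on replicate 7 they lay within the range of the normal arrays. There were 284 probe sets with a mean signal of 2000 or more, of which 38 were members, 31 listed a ribosomal protein gene with other symbols, and 215 were other probe sets. The median deviation of the 215 was 0.13 on replicate 10 and -0.04 on replicate 7, against -0.05 to 0.04 over the normal arrays. Replicate 10 was highest for 52.6% of them and replicate 7 lowest for 26.0%, against 84.2% and 57.9% of the 38 bright members. Their median difference between the groups was 0.029, with 155 above 0 and 60 below. The signal at the 99th percentile of an array was highest on replicate 10, at 2969, and lowest on replicate 7, at 2596, although the trimmed mean was the same on every array. Among the 8 tested members with a mean below 2000, replicate 10 was highest for 1 and replicate 7 lowest for 2, and the median difference was 0.021, against 0.055 for the 38 brighter ones.

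After quantile normalization, which gives all arrays the same distribution, the members' medians ran from -0.02 to 0.02 over normal and from -0.03 to 0.04 over hyperinsulinemic arrays, and replicate 10 was highest for 8 members and replicate 7 lowest for 18. The shares of all tested probe sets highest on replicate 10 or lowest on replicate 7 after this normalization were not computed. The members themselves make up part of the bright end that quantile normalization equalises. On replicate 7 their median stayed below 0, at -0.03, where that of the 215 other bright probe sets was 0.035. The part of scaling in the pattern was not tested beyond these values.

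**Figure D4:**
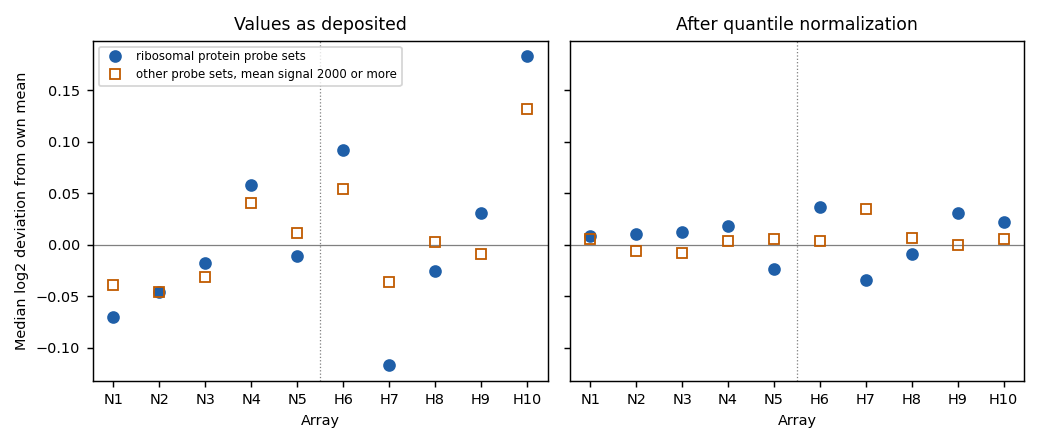
Median deviation from the own mean (log2 scale) on each array, for the 46 ribosomal protein probe sets (filled circles) and 215 other bright probe sets (open squares), with the values as deposited on the left and after quantile normalization on the right; N and H mark the normal and hyperinsulinemic groups. As deposited, members reach 0.18 on H10 and -0.12 on H7; after normalization they lie between -0.03 and 0.04.

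RNA of other cell types also differed between arrays. All 14 kidney marker genes found on the array, such as the proximal tubule genes Lrp2 and Slc34a1, reached the test level on these samples. Of 14 erythroid genes listed, 8 were on the array and 3 were tested (Hbb, Alas2 and Slc4a1); Gata1, Ahsp, Hbz, Hbe1 and Rhag were below the test level. The summed erythroid signal was 5156 to 6659 on normal and 6106 to 8209 on hyperinsulinemic arrays. The mean log2 signal of the 3 was highest on replicate 10, at 9.83, but 9.47 on replicate 7, which is above 4 of the 5 normal arrays, and 9.31 on replicate 6, the lowest of all. With it as a covariate, 26 of 46 members were above 0. The share of all tested probe sets above 0 in that fit was not computed. Hbb, 1 of the 3 genes, is itself a bright probe set, at 5255 ± 515 and 5877 ± 739 (SD, n = 5 each). The summed liver signal (15 of 16 genes on the array, 10 tested) was 1571 to 3425 and 1971 to 7514, highest on replicate 6. Of the 10, 9 had a difference above 0 (50.9% of all tested probe sets), with a median of 0.92. In limma 0 of the 10 passed and 6 had an unadjusted p below 0.05, all higher, against 2.44% of all tested probe sets. Their mean log2 signal was 6.94 ± 0.51 and 7.81 ± 0.80 (SD, n = 5 each, exact two-sided permutation p = 0.0794, adjusted p = 0.159), and that of the erythroid genes 9.42 ± 0.13 and 9.60 ± 0.21 (exact permutation p = 0.135, adjusted p = 0.180). Once the mean log2 liver signal was a covariate 31 members were above 0, where the share over all tested probe sets was not computed either. The summed leukocyte signal (11 of 12 on the array, 9 tested) was 1509 to 1790 and 1608 to 1730. The ratio of 3' to 5' signals of the Gapdh control, which rises as RNA degrades, averaged 1.07 ± 0.05 and 1.09 ± 0.06 (SD, n = 5 each, exact two-sided permutation p = 0.746; adjusted p = 0.746 over 4 array measures) and was highest on replicate 10, at 1.18. The part of each of these in the members' pattern was not tested further. In tissue RNA, fewer cells of a type and less RNA per cell cannot be told apart.

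Genes that work with the cytosolic ribosome were read in the same comparison from lists of genes named for their function. Each gene was read from its brightest tested probe set. For these lists and those below, the background is the share of all tested probe sets. Of these, 50.9% were above 0, and 2.44% were higher and 2.93% lower at an unadjusted p below 0.05 in limma. Of 42 tested genes of ribosome biogenesis, 28 were above 0 and 14 below, with a median of 0.07; 0 passed in limma, and 4 had an unadjusted p below 0.05, all higher. Bysl, needed for maturation of the small subunit, read 268 ± 12.6 on normal and 321 ± 29.1 on hyperinsulinemic arrays (log2 difference 0.24 ± 0.07, limma adjusted p = 0.676). Nop56, a core protein of the nucleolar particles that methylate ribosomal RNA, stood at 822 ± 41.1 and 911 ± 33.9 (0.15 ± 0.05, limma adjusted p = 0.891). On replicate 7 the median deviation of this list was 0.02, against -0.12 for the ribosomal proteins, and on replicate 10 it was 0.06.

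Other mRNAs known to carry a TOP tract, mostly translation factors, had 10 of 16 tested genes above 0 and a median of 0.013; 0 passed in limma and 1 had an unadjusted p below 0.05. That was Eef1a1, the elongation factor that brings aminoacyl-tRNA to the ribosome, at 5385 ± 595 and 6064 ± 546 (log2 difference 0.17 ± 0.08, adjusted p = 0.918); Pabpc4, a poly(A)-binding protein, differed by -0.11 ± 0.07. Their median deviation was 0.03 on replicate 7 and 0.08 on replicate 10. Of 71 genes of the mitochondrial ribosome, which is encoded apart from the cytosolic one, 26 were above 0 and 45 below, with a median of -0.021; 0 passed in limma, and 1 higher and 3 lower had an unadjusted p below 0.05. Mrpl48 differed by 0.24 ± 0.09 and Mrps6 by -0.23 ± 0.10. On replicate 7 this list was low as well, at -0.09, and on replicate 10 it was 0.05. Whether these lists differ from the cytosolic ribosomal proteins was not tested.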

How the data were processed

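The authors deposited 1 linear intensity (MAS5 signal) per probe set and array for 15923 probe sets on 10 arrays, per the submitters' processing notes; version and settings are not given in the sources used here. Every array had a trimmed mean (2% off each end) of 250.0, and the values were used as deposited. Gene symbols came from GEO's platform annotation and chromosomes from the GRCr8 gene table (41 of 43 genes matched). After removal of 57 control probe sets, those at or above the 40th percentile of the array on 5 or more of the 10 arrays were tested (9601). The test was limma 3.58.1 under R 4.3.3 (lmFit, eBayes with an intensity trend, log2(signal + 16), two-sided, Benjamini-Hochberg, threshold 0.05). Array measures used exact permutation tests; their smallest possible p with 5 and 5 arrays is 0.00794. Precision is limited by how many arrays there are.

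Members and lists were chosen with earlier results of these data known. Any member could be named. Differences with standard errors were given at least for members passing, the 8 with the smallest p per direction, X-linked members and members without overlap. A p was not printed for all of these. Members below the test level have signals only. Alternatives changed the scaling, pseudocount (1, 32), filter, variance model, covariates, probe sets and arrays. The limma step was tested on simulated data in which probe sets vary independently. The members moved together on single arrays, a setting that the simulation does not cover. Promoter sequences are from RefSeq; protein sequences were not used here. Figures used Python 3.11.15 and matplotlib 3.10.9.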

Additional observations from a re-analysis of the deposited data

Results flagged for a closer look

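Each member's signals were checked for 1 array far from the other 4 of its group (gap to the nearest array over the group's range, Dixon's criterion at 95%). Of 98 groups, 5 held such an array (5.10%), about the 1 in 20 that chance gives. They were Rpl13a on hyperinsulinemic replicate 6 (2395.8), Rpl21 and Rps24 (its brighter probe set) on hyperinsulinemic replicate 7 (1269.1 and 3109.6), Rpl5 on hyperinsulinemic replicate 10 (4256.4) and Rpl37a on normal replicate 5 (2499.3). The values on replicates 7 and 10 go in the direction that most members took on those arrays.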

How the results depend on the processing

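No paired analysis was possible because the groups share no replicate numbers. Passing members were counted under 24 alternatives, and 0 passed under each (limma, or the exact rank test). The exact rank test could pass no probe set, given its smallest possible p of 0.00794 and the few probe sets without overlap. Another 4 alternatives changed only which probe sets enter the median and the share. The median difference lay between 0.0030 and 0.073 in 27 alternatives, and from 0.0039 to 0.073 when single arrays were left out; the share above 0 then ran from 54.3% (without hyperinsulinemic replicate 10) to 93.5% (without replicate 7). The count of members at an unadjusted p below 0.05 was 2 with all arrays and 0 to 10 when 1 array was left out (10 without hyperinsulinemic replicate 7, against 2.67% of all tested probe sets higher in that fit; smallest adjusted p 0.627 in limma). It was 0 with arrays shifted to a common median, without an intensity trend and with array weights. It was 1 with quantile normalization, with the stricter filter (60th percentile on all 10 arrays), and with the liver or erythroid score as a covariate. In the main fit 5.36% of all tested probe sets had such a p. Apart from the values given here, that share was not computed for the alternatives, so their counts have no background. Over all probe sets, 1 passed; the count was 2 with a common median, 5 without a filter, 0 without an intensity trend, 4 with array weights, 0 with the liver score, 6 with the erythroid score, 0 with the exact rank test (362 at an unadjusted p below 0.05), 0 without hyperinsulinemic replicates 7 and 10, and 0 to 4 when 1 array was left out. The cause of these shifts was not tested. Of 373 values for 17 members chosen by p, X linkage or lack of overlap, 350 kept their direction and 0 passed. The sign turned for Rps6 with quantile normalization (-0.0019), for Rps27l with array weights (0.056), the Gapdh ratio (0.00076), the liver score (0.092) and without replicates 7 and 10 (0.013), for Rpl39 with array weights (-0.0012) and the liver score (-0.17), for Rpl13a (0.082) and Rpl37a (0.021) with the liver score, and for Rpl21 without replicates 7 and 10 (0.017). When 1 array was left out, Rpl21 ran from -0.047 to 0.016, Rps27l from -0.076 to 0.048, Rpl39 from -0.053 to 0.12, Rpl13a from -0.11 to 0.032, Rpl35a from -0.17 to 0.0040, Rps28 from -0.14 to 0.031, Rpl37a from -0.30 to 0.021 and Rpl14 from -0.099 to 0.0096. The alternatives without replicates 7 and 10, with the probe sets of several symbols and with Rps4y2 were chosen after seeing the data. Signals near background limit the dimmer Rpl14 probe set, Rpl30 and Rpl3l.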
